A study of Homo sapiens with 24 samples.

Results

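MHC class II genes and their transactivator CIITA were followed in 2 human acute myeloid leukaemia (AML) cell lines treated with a RAS inhibitor. The 5 genes, HLA-DRA, HLA-DRB1, HLA-DMA, CD74 and CIITA, were taken by symbol from the 13033 genes of the table, and all 5 were found. OCI-AML3 (NRAS Q61L in the labels) and Molm-14 (FLT3-ITD) were each given RMC-7977, an inhibitor of active, GTP-bound RAS, at 25 nM for 2 h or 24 h, or the solvent DMSO. The labels give poly(A) RNA and 1 batch, and list 4 libraries in each of the 6 groups. Of these 24, 23 libraries were in the table. OCI-AML3 at 24 h had n = 3, since replicate 3 was not analysed here, and every other group had n = 4. Each line had a single DMSO group with no stated time, which served both drug times. Each genotype is represented by 1 line, so genotype and line cannot be told apart, and the labels do not state whether replicate libraries came from separate cultures.

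MHC class II molecules present peptides to CD4+ T cells. HLA-DRA and HLA-DRB1 encode the alpha and beta chains of HLA-DR, CD74 encodes the invariant chain that fills and escorts new class II molecules, and HLA-DMA encodes a chain of HLA-DM, which exchanges the invariant chain's remnant for peptide in endosomes. CIITA is the co-activator that switches these genes on: it does not bind DNA itself but docks on the RFX, NF-Y and CREB factors bound at class II promoters. Class II is present in monocytic and some AML cells, and interferon gamma is its best known inducer.

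The promoters of class II genes share an element read by those factors, an X box followed by a Y box, and they are shown because the described genes are its textbook targets. The stretches below are bases -150 to -21 from the RefSeq start site (GRCh38.p14), on the gene's strand. HLA-DRB1 (chr6:32589869-32589998, minus strand), HLA-DMA (chr6:32953118-32953247, minus strand), CD74 (chr5:150412931-150413060, minus strand) and HLA-DOB (chr6:32817023-32817152, minus strand) had an entry. Sequences of HLA-DRA and CIITA were not used here. HLA-DOB encodes a chain of HLA-DO, an inhibitor of HLA-DM, and is the sixth class II gene in the table. Capitals mark TGATG on the gene's strand, the core of an X2 box (2 overlapping copies read TGATGATG), and ATTGG or its complement CCAAT, the core of a Y box.
HLA-DRB1: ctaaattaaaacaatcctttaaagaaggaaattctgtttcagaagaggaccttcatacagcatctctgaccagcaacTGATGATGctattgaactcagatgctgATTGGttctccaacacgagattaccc
HLA-DMA: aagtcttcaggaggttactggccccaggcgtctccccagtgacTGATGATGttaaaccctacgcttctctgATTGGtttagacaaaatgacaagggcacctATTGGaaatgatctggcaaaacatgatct
CD74: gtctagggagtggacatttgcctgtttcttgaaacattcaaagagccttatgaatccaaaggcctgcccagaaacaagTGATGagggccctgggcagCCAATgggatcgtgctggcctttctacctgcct
HLA-DOB: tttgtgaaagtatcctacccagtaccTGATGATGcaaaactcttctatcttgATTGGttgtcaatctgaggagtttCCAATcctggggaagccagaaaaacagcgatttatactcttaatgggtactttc

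TGATGATG lay upstream of ATTGG in HLA-DRB1, HLA-DMA and HLA-DOB. The TGATG nearer to the start site began 24 bases before the ATTGG in HLA-DRB1, 25 in HLA-DMA and 23 in HLA-DOB. In CD74 a single TGATG at -72 was followed by CCAAT at -53, closer than the 20 to 40 bases searched, so CD74 did not count as a match. TGATG followed on the gene's strand by ATTGG or CCAAT at 20 to 40 bases, counted from start to start, was found in 0.427% of 35116 promoter windows of the same length. TGATG alone was in 9.26% on the gene's strand and in 16.9% on either strand, ATTGG was in 22% on either strand, and TGATGATG was in 0.265% on the gene's strand. The letters and the spacing were chosen after these sequences had been read, and a match is not evidence of binding.

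Levels are given in CPM (read counts scaled to a common library size), recovered from the authors' log2 CPM by taking off the constant they had added. The effective size of the libraries ran from 15.328 to 22.353 M reads (median 18.413 M). Calls needed a log2 fold change of 1 or more in size and a limma p, adjusted by Benjamini-Hochberg over 13033 genes, under 0.05, and only called genes are said to rise or fall. Fold changes of genes with few reads are understated by the constant, so for groups with under 10 reads in all a ratio of summed reads is given, with an exact interval that covers counting error only. In bulk RNA, more cells with a transcript and more transcript per cell cannot be told apart.

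HLA-DRA and HLA-DRB1 transcripts were almost absent from OCI-AML3 in DMSO, and at 24 h of RMC-7977 all 5 genes were higher. HLA-DRA, the nearly invariant alpha chain, had 11.4, 13.0 and 14 CPM at 24 h, against 0, 0.0463, 0 and 0.0593 CPM in DMSO. HLA-DRB1, its partner beta chain, had 5.84, 5.23 and 4.15 CPM at 24 h, against 0.0511, 0, 0.0446 and 0 CPM in DMSO. Neither gene's libraries overlapped between the groups, and every DMSO library held at most 1 read of each. Summed over libraries, HLA-DRA had 702 reads at 24 h and 2 in DMSO, a depth-corrected ratio of 516 (95% interval 142 to 4266). HLA-DRB1 had 278 reads at 24 h and 2 in DMSO, a ratio of 204 (56.0 to 1694). The adjusted p was 1.66e-20 for HLA-DRA and 1.27e-15 for HLA-DRB1.

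The peptide-loading genes of OCI-AML3 started from unlike levels. HLA-DMA had 4.74, 4.97 and 5.25 CPM at 24 h, against 0.562, 0.740, 0.625 and 0.889 CPM in DMSO. CD74 had 260, 233 and 232 CPM at 24 h, against 102, 94.2, 99.6 and 92.8 CPM in DMSO. All 24 h libraries lay above all DMSO libraries for both genes. HLA-DMA rose 6.36-fold (log2 2.67 ± 0.29 SE, adjusted p = 1.27e-09) and CD74 rose 2.48-fold (log2 1.31 ± 0.05, adjusted p = 8.04e-21).

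CIITA, the transactivator, had 24.6, 26.5 and 23.6 CPM at 24 h in OCI-AML3, against 4.25, 4.31, 5.39 and 4.73 CPM in DMSO. The groups did not overlap, and CIITA rose 5.26-fold (log2 2.39 ± 0.11, adjusted p = 2.08e-18). With it, 5 of 5 genes were called higher in OCI-AML3 at 24 h, where 18.4% of all genes were, and 0 of 5 lower, where 17.1% were. Among the 13033 genes ordered by log2 fold change, HLA-DRA stood at rank 3 and HLA-DRB1 at rank 11, against rank 335 for HLA-DMA, 476 for CIITA and 1642 for CD74.

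**Figure D1:**
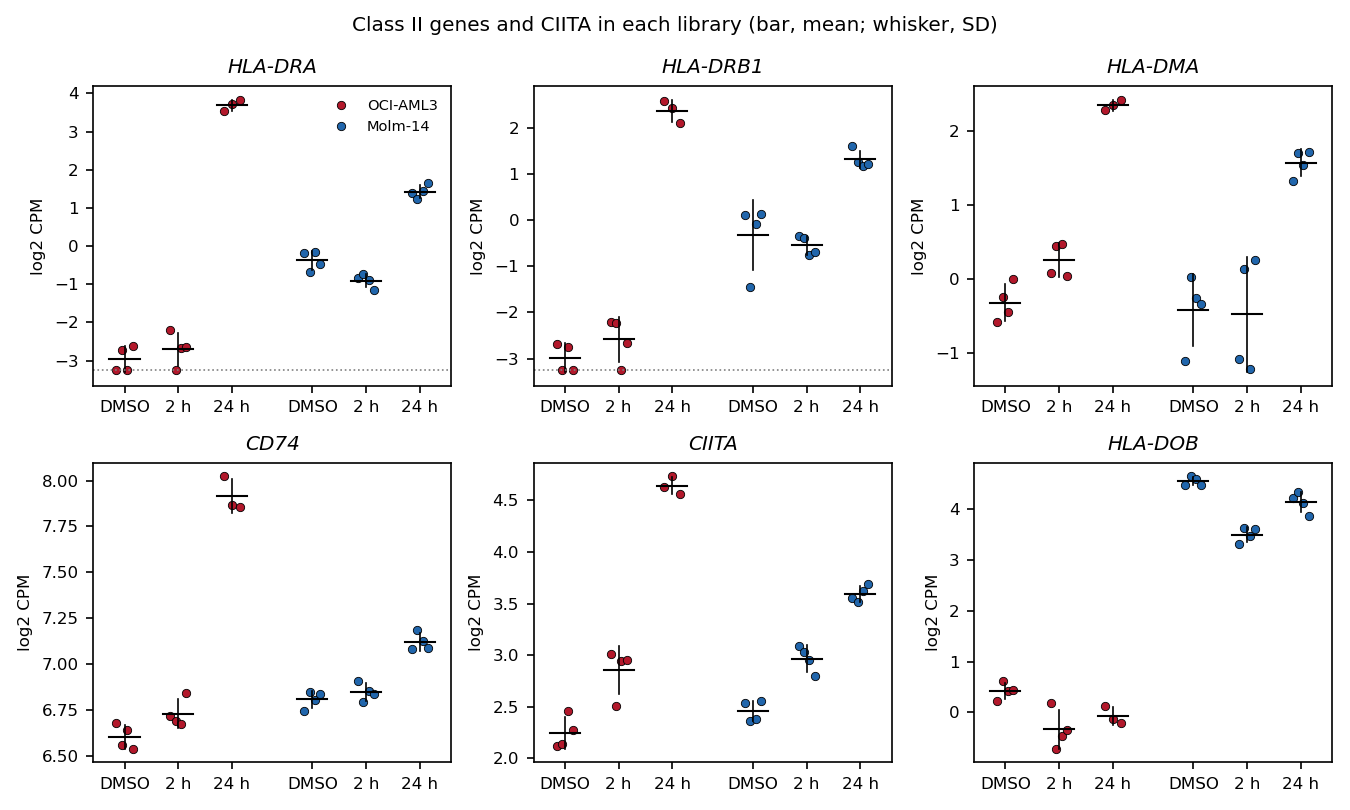
Level of each class II gene and CIITA in every library, as the authors' log2 CPM, for OCI-AML3 (red) and Molm-14 (blue) in DMSO and after 2 h and 24 h of RMC-7977; bars are means, whiskers are SD, and the dotted line marks no reads. The y axes differ between panels. HLA-DRA in OCI-AML3 leaves the dotted line at 24 h (11.4 to 14 CPM), while HLA-DOB is highest in Molm-14 in DMSO (22.3 to 25.1 CPM).

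In Molm-14 HLA-DRA and HLA-DRB1 were already detected in DMSO, and 4 of the 5 genes were called higher at 24 h. HLA-DRA had 2.50, 2.24, 2.61 and 3.04 CPM at 24 h, against 0.781, 0.521, 0.787 and 0.620 CPM in DMSO. HLA-DRB1 had 2.92, 2.29, 2.14 and 2.22 CPM at 24 h, against 0.965, 0.260, 0.843 and 0.992 CPM in DMSO. Both sets of 24 h libraries lay above all DMSO libraries, and one DMSO library was low for HLA-DRB1. HLA-DRA rose 3.48-fold (log2 1.80 ± 0.24, adjusted p = 7.25e-08), and HLA-DRB1 rose 3.11-fold (log2 1.64 ± 0.30, adjusted p = 1.42e-05). The HLA-DRB1 call ended when 1 CPM was added before the logarithm (log2 0.961).

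HLA-DMA had 2.40, 3.15, 2.80 and 3.16 CPM in Molm-14 at 24 h, against 0.359, 0.911, 0.731 and 0.682 CPM in DMSO. CIITA had 11.7, 11.3, 12.2 and 12.8 CPM at 24 h, against 5.69, 5.05, 5.12 and 5.77 CPM in DMSO. Neither gene's groups overlapped, and the DMSO values of HLA-DMA were the more scattered. HLA-DMA rose 3.98-fold (log2 1.99 ± 0.27, adjusted p = 1.15e-07) and CIITA rose 2.20-fold (log2 1.14 ± 0.10, adjusted p = 3.37e-11). CD74 had 135, 146, 140 and 136 CPM at 24 h, against 107, 115, 112 and 114 CPM in DMSO. Its groups did not overlap either, but the 1.24-fold difference (log2 0.31 ± 0.05, adjusted p = 4.14e-07) stayed under the fold threshold. In Molm-14 at 24 h, 4 of 5 genes were called higher, where 11.4% of all genes were, and 0 of 5 lower, where 6.57% were.

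At 2 h none of the 5 genes was called in either line, and CIITA was the one with the smallest p. In OCI-AML3 0 of 5 were called higher, against 3.23% of all genes, and 0 of 5 lower, against 3.35%. In Molm-14 0 of 5 were called higher, against 4.3% of all genes, and 0 of 5 lower, against 2.98%. Leaving the fold aside, the adjusted p of limma was below 0.05 for CIITA and CD74 in OCI-AML3 and for CIITA in Molm-14. CIITA had 7.97, 5.59, 7.59 and 7.64 CPM in OCI-AML3 at 2 h, against 4.25 to 5.39 CPM in DMSO. It had 8.41, 8.08, 7.66 and 6.83 CPM in Molm-14 at 2 h, against 5.05 to 5.77 CPM in DMSO. No 2 h library of either line overlapped its DMSO group, and the second OCI-AML3 library was the lowest. CIITA was 1.52-fold higher in OCI-AML3 (log2 0.61 ± 0.10, adjusted p = 9.87e-06) and 1.42-fold higher in Molm-14 (log2 0.51 ± 0.10, adjusted p = 0.000108), below the fold threshold in both. An adjusted p below 0.05 with a higher level was reached by 31.4% of all genes in OCI-AML3 and 28.7% in Molm-14.

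The HLA genes stayed low at 2 h. HLA-DRA had 0.111, 0, 0.0513 and 0.0542 CPM in OCI-AML3 at 2 h, 4 reads in all, against 2 reads in DMSO (ratio 2.17, 95% interval 0.311 to 24.0). HLA-DRB1 had 0.111, 0.109, 0 and 0.0542 CPM at 2 h, 5 reads in all, against 2 in DMSO (ratio 2.71, 0.444 to 28.5). At this depth no difference was detectable for either gene. In Molm-14 HLA-DRA had 0.456, 0.493, 0.432 and 0.345 CPM at 2 h, against 0.521 to 0.787 CPM in DMSO. Those groups did not overlap, but the difference was not called (log2 -0.54 ± 0.24, adjusted p = 0.0549). HLA-DRB1 in Molm-14 ranged from 0.486 to 0.684 CPM at 2 h and from 0.260 to 0.992 CPM in DMSO (adjusted p = 0.555).

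HLA-DMA had 0.947, 1.25, 1.282 and 0.921 CPM in OCI-AML3 at 2 h, against 0.562 to 0.889 CPM in DMSO. All 2 h libraries were above the DMSO libraries, with an adjusted p of 0.0656. In Molm-14 HLA-DMA was scattered at 2 h, with 0.365, 0.986, 0.324 and 1.09 CPM, across the 0.359 to 0.911 CPM of DMSO (adjusted p = 0.876). CD74 ranged from 102 to 115 CPM in OCI-AML3 at 2 h, against 92.8 to 102 CPM in DMSO (log2 0.13 ± 0.05, adjusted p = 0.0182), and from 111 to 120 CPM in Molm-14 at 2 h, against 107 to 115 CPM in DMSO (adjusted p = 0.487).

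Between 2 h and 24 h of drug, 5 of 5 genes were called higher in OCI-AML3, where 11.6% of all genes were. The ratio of summed reads at 24 h to 2 h was 238 for HLA-DRA (92.5 to 875) and 75.3 for HLA-DRB1 (31.9 to 234), and the fitted fold was 4.26 for HLA-DMA, 3.45 for CIITA and 2.27 for CD74. In Molm-14, 3 of 5 were called, where 7.25% of all genes were: HLA-DRA (5.04-fold), HLA-DRB1 (3.62-fold) and HLA-DMA (4.14-fold). CIITA was 1.55-fold higher at 24 h than at 2 h in Molm-14 and CD74 1.21-fold higher, neither past the fold threshold. These comparisons share their 24 h libraries with those against DMSO.

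**Figure D2:**
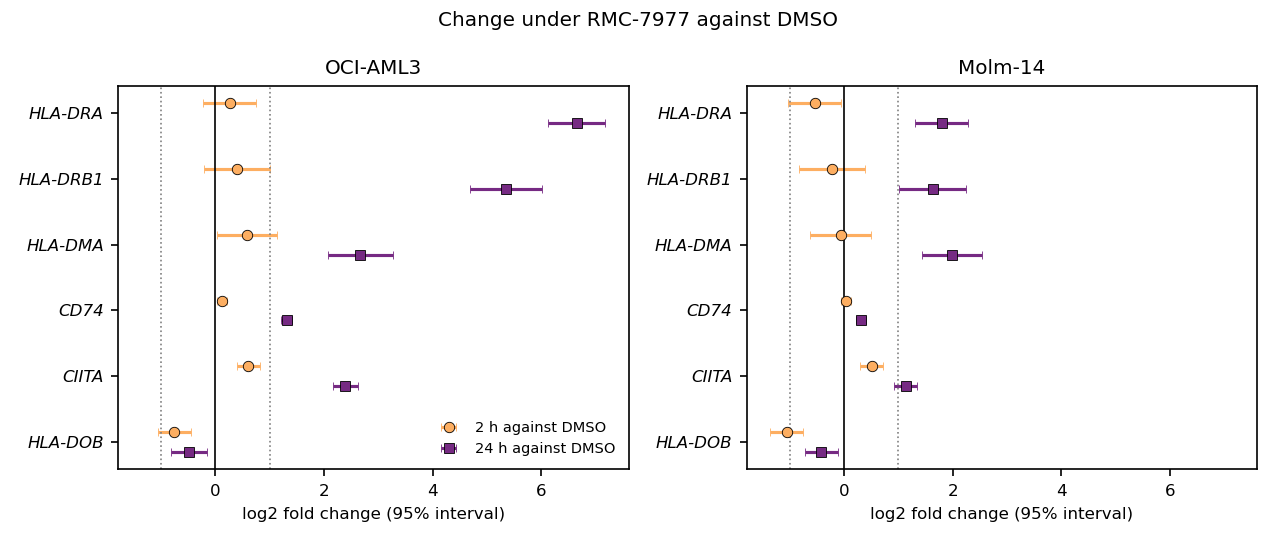
Log2 fold change of each gene after 2 h (orange circles) and 24 h (purple squares) of RMC-7977 against DMSO, with 95% intervals from limma, in OCI-AML3 (left) and Molm-14 (right); dotted lines mark the fold threshold of 1. All 5 genes lie right of it in OCI-AML3 at 24 h, 4 of them in Molm-14, and none at 2 h. The fitted values of HLA-DRA (6.65) and HLA-DRB1 (5.34) in OCI-AML3 depend on the constant in the log2 CPM.

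The response at 24 h was called different between the lines for 3 of the 5 genes, and each of these changed more in OCI-AML3. The log2 fold change in OCI-AML3 exceeded that in Molm-14 by 4.85 ± 0.35 for HLA-DRA (adjusted p = 5.28e-13), by 3.71 ± 0.44 for HLA-DRB1 (adjusted p = 1.85e-08) and by 1.26 ± 0.15 for CIITA (adjusted p = 2.96e-08). In this comparison 8.09% of all genes were called higher. For HLA-DRA and HLA-DRB1 these values rest on DMSO groups of 2 reads in OCI-AML3. CD74 differed by 0.999 ± 0.07 (adjusted p = 1.04e-13), at the edge of the fold threshold, which it passed in 8 of the 15 fits that left out 1 library. HLA-DMA differed by 0.68 (95% interval -0.14 to 1.499, adjusted p = 0.138), so its response was not shown to differ. At 2 h 0 of 5 were called in either direction, against 2.12% of all genes higher and 3.52% lower, and the smallest adjusted p of limma was 0.0626, for HLA-DRA.

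In DMSO the lines differed in the HLA-DR chains. HLA-DRA had 2 reads in OCI-AML3 and 49 in Molm-14 over 4 libraries each (ratio 0.0361, 95% interval 0.00425 to 0.137, adjusted p = 3.02e-11). HLA-DRB1 had 2 reads in OCI-AML3 and 56 in Molm-14 (ratio 0.0315, 0.00373 to 0.119, adjusted p = 2.18e-09). Both were called lower in OCI-AML3, so 2 of 5 genes were, where 12.2% of all genes were, and both calls ended when 1 CPM was added before the logarithm (log2 -0.706 for HLA-DRA, -0.762 for HLA-DRB1). CIITA averaged 4.67 ± 0.53 CPM in OCI-AML3 and 5.41 ± 0.38 CPM in Molm-14 (SD, n = 4 each, adjusted p = 0.0627). HLA-DMA averaged 0.704 ± 0.14 and CD74 97.2 ± 4.41 CPM in OCI-AML3, against 0.671 ± 0.23 and 112 ± 3.61 CPM in Molm-14. Neither was called, with an adjusted p of limma of 0.738 for HLA-DMA. CD74 was lower in OCI-AML3 without overlap of the groups, but below the fold threshold (log2 -0.205 ± 0.046, adjusted p = 0.000175).

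Across the 6 groups every one of the 5 genes was highest in OCI-AML3 at 24 h and next in Molm-14 at 24 h, with no overlap between those groups or with the group below. Below them the order differed. HLA-DRA and HLA-DRB1 were lowest in OCI-AML3 in DMSO and at 2 h, which overlapped, and all their Molm-14 groups lay above these. HLA-DMA overlapped among OCI-AML3 in DMSO and Molm-14 in DMSO and at 2 h, and Molm-14 at 2 h also overlapped OCI-AML3 at 2 h. CD74 overlapped at each step among its 4 lower groups, as did CIITA. Per kb of the longest coding transcript, OCI-AML3 at 24 h had 139.9 CPM of CD74, 10.0 of HLA-DRA, 4.13 of HLA-DRB1 and 4.44 of HLA-DMA, and OCI-AML3 in DMSO had 56.3 of CD74 and under 1 of the others.

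HLA-DOB was not called higher against DMSO in either line at either time. In Molm-14 it had 9.89 to 12.3 CPM at 2 h, against 22.3 to 25.1 CPM in DMSO, and it fell 2.08-fold (log2 -1.05 ± 0.15, adjusted p = 3.92e-07). That call ended with 1 CPM added (log2 -0.999) and without the first 2 h library (log2 -0.993). At 24 h it had 14.6 to 20.2 CPM, and the difference from DMSO was below the fold threshold (log2 -0.42 ± 0.15, adjusted p = 0.0129). In OCI-AML3 it had 0.502 to 1.03 CPM at 2 h and 0.763 to 0.988 CPM at 24 h, against 1.07 to 1.42 CPM in DMSO. All drug libraries of OCI-AML3 lay below its DMSO libraries, but both differences were below the fold threshold. They were log2 -0.76 at 2 h (adjusted p = 5.74e-05) and log2 -0.49 at 24 h (adjusted p = 0.00601). In DMSO it was called lower in OCI-AML3, at 1.24 ± 0.14 CPM, against 23.5 ± 1.403 CPM in Molm-14 (SD, n = 4 each). With HLA-DOB, 6 of the 17 class II genes listed were in the table, and the other 11, among them the DP and DQ chains, HLA-DMB, HLA-DOA and HLA-DRB3 to HLA-DRB5, were not analysed here.

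HLA genes resemble each other, so reads could be divided between them. In the GENCODE v29 transcripts, 9.92% of the 50-base stretches of HLA-DRB1 (chr6:32578769-32589848, minus strand) also occurred in other genes, chiefly HLA-DRB5 (8.64%), and none of its 100-base stretches did. HLA-DRA (chr6:32439842-32445046, plus strand) and CD74 (chr5:150401637-150412929, minus strand) shared none of either length. HLA-DMA (chr6:32948613-32969094, minus strand) shared 8.7% and CIITA (chr16:10866222-10943021, plus strand) 14.5% of 50-base stretches, and HLA-DOB (chr6:32812763-32820466, minus strand) 33.1%, each chiefly with 1 other annotated gene. The search used reference alleles, and the lines' own alleles, HLA-DRB3 and HLA-DRB4 were not searched. The sources used here give neither read length nor strand setting, so reads of other DRB genes in the HLA-DRB1 values cannot be told apart.

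**Figure D3:**
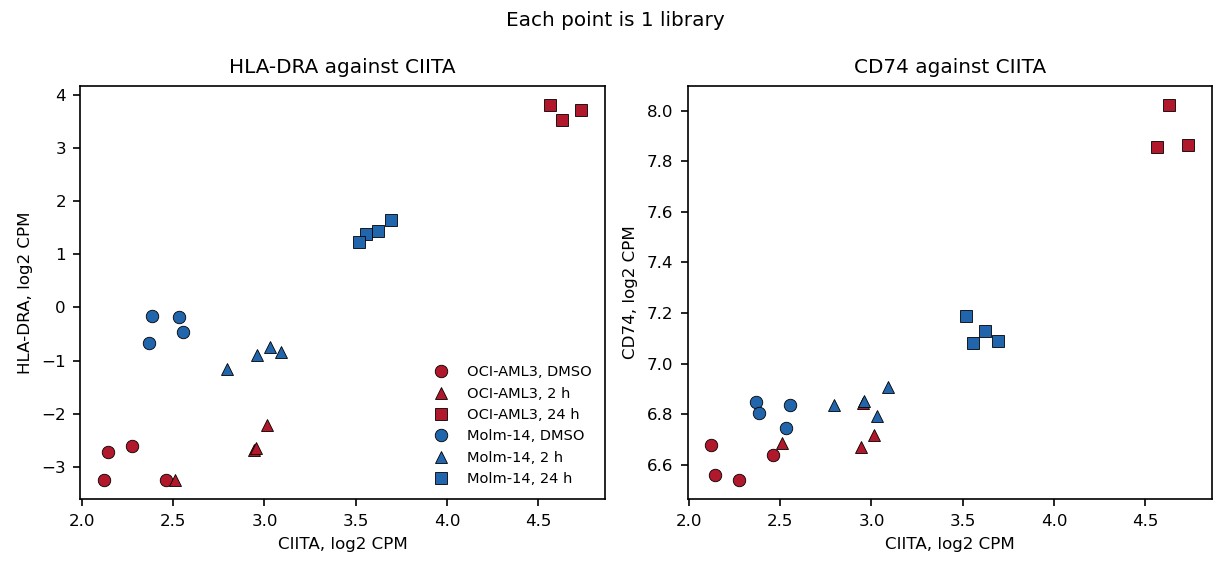
HLA-DRA (left) and CD74 (right) against CIITA, in log2 CPM, 1 point per library, by line (colour) and treatment (shape). The 24 h libraries of OCI-AML3 are at the upper right in both panels. In the left panel the OCI-AML3 libraries at 2 h have CIITA levels like those of Molm-14 at 2 h (5.59 to 7.97 CPM in OCI-AML3, 6.83 to 8.41 CPM in Molm-14) with less HLA-DRA.

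At 2 h the lines overlapped in CIITA but not in HLA-DRA. At that time CIITA ranged from 5.59 to 7.97 CPM in OCI-AML3 and from 6.83 to 8.41 CPM in Molm-14, while HLA-DRA ranged from 0 to 0.111 CPM in OCI-AML3 and from 0.345 to 0.493 CPM in Molm-14. Over the 23 libraries Pearson's r between log2 values was 0.961 for HLA-DRA with HLA-DRB1, 0.938 for CD74 with CIITA, 0.877 for HLA-DRA with CIITA and 0.666 for HLA-DRB1 with HLA-DMA. These describe 6 separate clusters of libraries, not independent samples. Among 12529 genes, those most like HLA-DRA were CTSS (r = 0.976), OGT (0.969), N4BP2L2 (0.968), NSUN6 (0.966) and AP5B1 (0.965). HLA-DRB1 was at rank 8 for HLA-DRA, CD74 at 67, CIITA at 141, HLA-DMA at 646 and HLA-DOB at 4161. Those most like CIITA were FGD2 (0.977), OS9 (0.976), VPS8 (0.975), LMBR1L (0.970) and C11orf54 (0.969). CD74 was at rank 61 for CIITA, HLA-DRA at 334, HLA-DMA at 534, HLA-DRB1 at 711 and HLA-DOB at 7270. Many genes outside class II were thus more like CIITA than the HLA genes were.

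RFX5, RFXAP and RFXANK, which encode the RFX complex that CIITA docks on, were not called in either line at either time. Of 17 genes of class II transcription, 1 was called higher and 3 lower in OCI-AML3 at 24 h (median log2 0.04, against 0.01 for all genes), where 18.4% of all genes were called higher and 17.1% lower. In Molm-14 1 was called higher (median -0.22, against 0.00 for all genes), where 11.4% of all genes were. The share of these genes called lower in OCI-AML3 was near that of all genes. The acetyltransferase gene KAT2B rose in both (log2 1.47 ± 0.10 in OCI-AML3, 1.09 ± 0.10 in Molm-14). In OCI-AML3 the remodeller ATPase gene SMARCA4 (log2 -1.72 ± 0.05), the NF-Y subunit gene NFYA (-1.14 ± 0.05) and the methyltransferase gene CARM1 (-1.23 ± 0.06) fell. None of the 17 was called at 2 h in either line. At that time 3.23% of all genes were called higher and 3.35% lower in OCI-AML3, and 4.3% and 2.98% in Molm-14.

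Of 16 regulators that act on CIITA, 3 were called higher and 1 lower in OCI-AML3 at 24 h (median log2 0.46), against 18.4% of all genes higher and 17.1% lower, so the share called higher was near that of all genes. In Molm-14 4 were called higher (median 0.58), against 11.4% of all genes. PRDM1, which encodes the repressor BLIMP1, rose in OCI-AML3 (log2 2.60 ± 0.10) and in Molm-14 (2.26 ± 0.10). JAK2, a kinase of the interferon gamma receptor, rose in OCI-AML3 (1.96 ± 0.07) and Molm-14 (1.09 ± 0.06), and so did SOCS1, its feedback inhibitor, by 1.67 ± 0.16 in OCI-AML3 and 1.92 ± 0.15 in Molm-14. BCL6, a repressor gene, rose in Molm-14 (1.404 ± 0.10), and MYC fell in OCI-AML3 (-2.74 ± 0.05). At 2 h 2 were called higher and 1 lower in OCI-AML3, against 3.23% of all genes higher and 3.35% lower. In Molm-14 3 were called higher and 1 lower, against 4.3% of all genes higher and 2.98% lower. In OCI-AML3 MYC fell (-2.37 ± 0.04) while PRDM1 (1.93 ± 0.10) and SOCS1 (1.497 ± 0.15) rose. In Molm-14 MYC fell (-3.26 ± 0.04) while PRDM1 (1.27 ± 0.10), SOCS1 (1.19 ± 0.15) and SOCS3 (1.19 ± 0.21) rose.

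A list of 17 genes around the processing of peptides and the invariant chain held proteases, but also regulators and other lysosomal genes. In OCI-AML3 at 24 h, 5 of the 17 were called higher and none lower (median log2 0.75), against 18.4% of all genes higher. In Molm-14 2 were called higher and none lower (median 0.63), a share near the 11.4% of all genes. CTSS, the protease that trims the invariant chain, rose in OCI-AML3 (log2 1.74 ± 0.05) and was below the fold threshold in Molm-14 (0.61 ± 0.05). CTSF, another cathepsin gene, rose in OCI-AML3 (3.31 ± 0.27) and Molm-14 (1.79 ± 0.25), as did IFI30, a lysosomal thiol reductase, by 1.20 ± 0.10 in OCI-AML3 and 1.45 ± 0.09 in Molm-14. TFEB, a regulator of lysosomal genes, rose in OCI-AML3 (1.302 ± 0.07). At 2 h none was called in OCI-AML3, against 3.23% of all genes higher and 3.35% lower. IFI30 alone rose in Molm-14 (1.65 ± 0.09) and none fell, against 4.3% of all genes higher and 2.98% lower.

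Of 12 genes of class II traffic and turnover, 4 were called higher in OCI-AML3 at 24 h, against 18.4% of all genes, and 2 in Molm-14, against 11.4%, with none lower in either. Their median log2 fold change was -0.02 in OCI-AML3 and 0.50 in Molm-14. The tetraspanin gene CD37 rose in OCI-AML3 (2.14 ± 0.07) and Molm-14 (1.61 ± 0.06). MARCHF8, a ubiquitin ligase that can remove class II from the surface, rose in OCI-AML3 (1.59 ± 0.08), as did the tetraspanin gene CD9 (1.59 ± 0.20). RILP, which acts in lysosome transport, rose in OCI-AML3 (1.05 ± 0.11) and Molm-14 (1.18 ± 0.11). Of 11 co-stimulatory and checkpoint genes, 6 were called higher in OCI-AML3 at 24 h (median 1.08), against 18.4% of all genes, and 4 in Molm-14 (median 0.18), against 11.4%. VSIR, encoding the checkpoint VISTA, rose in OCI-AML3 (1.12 ± 0.06) and Molm-14 (2.81 ± 0.06), and CD86, a ligand of CD28, rose in OCI-AML3 (2.29 ± 0.18) and Molm-14 (3.55 ± 0.16). TNFSF9, the ligand of 4-1BB, rose in OCI-AML3 (1.09 ± 0.06) and Molm-14 (1.24 ± 0.05), and so did the checkpoint receptor gene HAVCR2, by 1.10 ± 0.23 in OCI-AML3 and 1.62 ± 0.21 in Molm-14. ICOSLG, the ligand of ICOS, rose in OCI-AML3 (1.08 ± 0.05), as did the adhesion gene ICAM2 (1.44 ± 0.11). At 2 h no gene of either list was called in OCI-AML3, against 3.23% of all genes higher and 3.35% lower. In Molm-14 TNFSF9 rose (1.13 ± 0.05) and CD40, a receptor of helper signals, fell (-1.59 ± 0.29). There 4.3% of all genes were called higher and 2.98% lower.

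**Figure D4:**
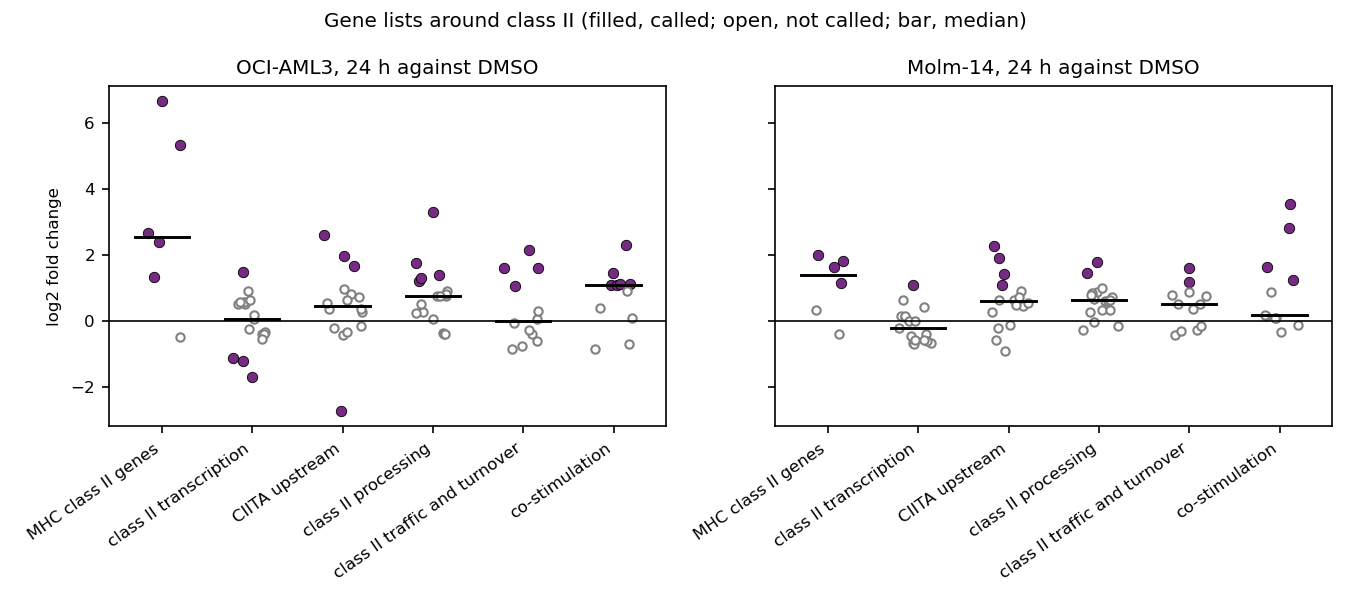
Log2 fold change at 24 h of each measured gene of 6 lists around class II presentation, in OCI-AML3 (left) and Molm-14 (right); filled points were called, open points were not, and bars are medians. The MHC class II list has medians of 2.53 in OCI-AML3 and 1.39 in Molm-14, and its one point below 0 in each panel is HLA-DOB.

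Markers of cell types moved as well. Of 14 myeloid markers 13 were in the table, and their summed level was 7242 to 7648 CPM in OCI-AML3 at 24 h, against 2374 to 2530 CPM in DMSO, and 1854 to 1939 CPM in Molm-14 at 24 h, against 1255 to 1312 CPM in DMSO. LYZ, the lysozyme gene, made up most of the difference in OCI-AML3, with 3584 to 3976 CPM at 24 h, against 559 to 599 CPM in DMSO. At 24 h 7 were called higher and 2 lower in OCI-AML3, against 18.4% of all genes higher and 17.1% lower, and 4 higher and 3 lower in Molm-14, against 11.4% higher and 6.57% lower. CSF1R, the macrophage growth factor receptor, rose in OCI-AML3 (3.71 ± 0.06) and Molm-14 (3.64 ± 0.06). In OCI-AML3 CSF3R (2.27 ± 0.05), ITGAM (1.78 ± 0.12) and PTPRC (1.35 ± 0.05) rose too. There LYZ (2.72 ± 0.05), CEBPB (1.48 ± 0.07) and ANPEP (1.48 ± 0.26) also rose. ITGAM (2.51 ± 0.11), CSF3R (1.497 ± 0.05) and PTPRC (1.18 ± 0.05) rose in Molm-14 as well. The monocyte markers CD14 (-3.56 ± 0.37) and FCGR1A (-2.96 ± 0.08) fell in OCI-AML3, and MPO (-2.15 ± 0.23), FCGR1A (-1.15 ± 0.07) and CEBPB (-1.03 ± 0.07) fell in Molm-14. Of 12 dendritic cell markers 5 were measured, with sums of 193 to 205 CPM in OCI-AML3 at 24 h, against 89.0 to 98.0 CPM in DMSO, and of 593 to 637 CPM in Molm-14 at 24 h, against 387 to 406 CPM in DMSO. FLT3 and IL3RA made up most of these sums. In OCI-AML3 3 of the 5 were called higher and 1 lower, against 18.4% and 17.1% of all genes. In Molm-14 2 were called higher and 1 lower, against 11.4% and 6.57%. CLEC10A (2.32 ± 0.35), IL3RA (2.03 ± 0.07) and FLT3 (1.49 ± 0.04) rose in OCI-AML3. IL3RA (1.39 ± 0.06) and ZBTB46 (1.38 ± 0.16) rose in Molm-14. BATF3 fell in both lines, with log2 fold changes of -4.21 ± 0.14 in OCI-AML3 and -2.91 ± 0.13 in Molm-14. Of 12 B cell markers 3 were measured, with sums of 8.47 to 12.5 CPM in OCI-AML3 at 24 h, against 0.967 to 2.17 CPM in DMSO, and of 25.8 to 27.5 CPM in Molm-14 at 24 h, against 21.1 to 25.8 CPM in DMSO. BLNK rose in OCI-AML3 (4.29 ± 0.15) and Molm-14 (2.34 ± 0.14), EBF1 rose in OCI-AML3 (1.77 ± 0.38), and PAX5 fell in Molm-14 (-1.24 ± 0.16). MS4A1, CD79A and CD79B were not analysed here. Of 12 T and NK cell markers 4 were measured, mostly CD4, with sums of 219 to 225 CPM in OCI-AML3 at 24 h, against 158 to 173 CPM in DMSO, and of 210 to 220 CPM in Molm-14 at 24 h, against 132 to 137 CPM in DMSO. The called members were lower: IL7R in OCI-AML3 (-4.20 ± 0.15) and TRAC in Molm-14 (-1.75 ± 0.21). Of 12 epithelial and stromal markers 3 were measured, with sums of 76.6 to 79.8 CPM in OCI-AML3 at 24 h, against 32.4 to 36.4 CPM in DMSO, and of 136 to 144 CPM in Molm-14 at 24 h, against 87.3 to 89.6 CPM in DMSO. PECAM1 made up most of these sums, with 72.3 to 76.0 CPM in OCI-AML3 and 128.5 to 137 CPM in Molm-14 at 24 h. Of the 3 markers, PECAM1 (1.18 ± 0.05) and COL1A2 (1.298 ± 0.31) rose in OCI-AML3, against 18.4% of all genes higher. None was called in Molm-14, against 11.4% of all genes higher and 6.57% lower. The same shares of all genes, with 17.1% lower in OCI-AML3, apply to the B cell and the T and NK cell markers. The part of these markers in the class II changes was not tested.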

How the data were processed

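Per the submitters' processing notes, the authors' tools were STAR 2.7.8a (an aligner), Trimmomatic 0.36 (a trimmer), RSEM 1.3.3 (a quantifier), limma 3.38.3, edgeR 3.24.3 and MultiQC 1.28, on hg38 (GRCh38). Roles, order, settings, strand and gene filter are not given there. The deposited values were log2 CPM over a constant, 0.1047 CPM in every library, equal to 1.961 reads at the mean depth. Depth was recovered from the spacing of low values: among values up to 20 reads, 75.4% to 83.0% came within 0.05 of an integer.

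Limma 3.58.1 (R 4.3.3; trend and robust) was fitted once to 6 group means over 23 libraries and 13033 genes and was tested on simulated data. Comparisons were drug against DMSO, 24 h against 2 h, the difference in response, and OCI-AML3 against Molm-14 in DMSO. The p-values measure the spread between libraries, which may be technical. Genes named from lists were up to 4 called ones of smallest adjusted p per drug comparison, and genes most like HLA-DRA and CIITA were the 5 of highest r; HLA-DOB, the marker genes, genes given as not called, CD86 and HAVCR2 in OCI-AML3, were named after their values were seen. The members and lists were chosen with earlier results of these data known. Alternatives were other pseudocounts, scalings, filters and fits, a replicate block and leaving out each library.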

Additional observations from a re-analysis of the deposited data

Results flagged for a closer look

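CIITA in the second OCI-AML3 library at 2 h had 5.59 CPM, far from the 7.59 to 7.97 CPM of the other libraries of its group. It was the 1 library set apart by its gap to the nearest in 30 sets of 4 libraries (each gene, HLA-DOB included, in each group of 4), and chance sets apart about 1 in 20.

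The response at 24 h differed between the lines by an interaction test in limma, at an adjusted p below 0.05 with the fold threshold left aside. The log2 fold change in OCI-AML3 exceeded that in Molm-14 by 4.852 for HLA-DRA, 3.708 for HLA-DRB1, 1.257 for CIITA and 0.999 for CD74. Every 24 h library of both lines was above its DMSO group for these 4 genes.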

How the results depend on the processing

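Of 54 single-gene comparisons, 54 kept direction and call under limma without trend and robust and under voom on read equivalents. The same held for a fit of only the groups compared and for the replicate block. It also held under a filter at 1 CPM on the mean of all libraries, but that filter leaves fold changes unmoved. HLA-DRA and HLA-DRB1 averaged above 1 CPM only in the 24 h groups, so passing the filter lends their calls no support. Replicate numbers were not shown to pair the libraries: correlations of same-numbered deviations ran from -0.183 to 0.104, and with the block as a term the members called at 24 h stayed 5 in OCI-AML3 and 4 in Molm-14. Adding 1 CPM ended the calls of HLA-DRB1 in Molm-14 at 24 h (0.961) and of HLA-DRA (-0.706) and HLA-DRB1 (-0.762) between the lines in DMSO, leaving 0 members lower there in place of 2, and of HLA-DOB in Molm-14 at 2 h (-0.999). It took genes called higher at 2 h to 362 from 561 in Molm-14 and to 205 from 421 in OCI-AML3, and the response at 2 h to 134 from 276; 0.5 CPM gave 274 and 176 for OCI-AML3 and the response. The uncalled response of HLA-DOB at 24 h (-0.077) turned to 0.123 and 0.043 with 1 and 0.5 CPM. The response of CD74 at 24 h passed the fold with library totals (1.073) and median-of-ratios scaling (1.006), and ran from 0.945 to 1.029 with 1 library left out. Library totals put the median of all genes in OCI-AML3 at 24 h at 0.180, against 0.012. With 1 library left out, uncalled HLA-DMA ran from -0.306 to 0.187 in Molm-14 at 2 h and from -0.129 to 0.248 between the lines, and HLA-DOB in Molm-14 at 2 h from -1.096 to -0.993. The cause was not tested. HLA-DRA and HLA-DRB1 in OCI-AML3 in DMSO rest on 2 reads each, which limits the precision of their fold changes.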
